A study of Mus musculus with 12 samples.

Results

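The Shh-Oct4 line is a single line of induced pluripotent stem (iPS) cells. According to the sample labels, embryonic fibroblasts were first brought to a neural-stem-cell-like state with sonic hedgehog (Shh) and then received the pluripotency factor Oct4 by transduction. Its array was 1 of 12 in the series and was set against the ES array, which carries RNA of 129/Ola mouse embryonic stem cells, and the MEF array, which carries RNA of mouse embryonic fibroblasts. The other 8 iPS lines were used side by side: Bmi1 with Oct4, oxysterol with Oct4 and purmorphamine with Oct4, each starting from embryonic fibroblasts, and oxysterol with Oct4 starting from adult tail-tip fibroblasts, with 2 lines of each recipe. Oxysterol and purmorphamine are small molecules that switch on the hedgehog pathway at Smoothened, and every iPS line received Oct4. The strain of the fibroblasts and the age of the animals are not stated in the labels. Each RNA was labelled with Cy3 and hybridised once, so ES, MEF and the Shh-Oct4 line have no replicate and every comparison among them is a size without a test.

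Pluripotency in the mouse is held by a circuit of transcription factors around Oct4 (Pou5f1), Sox2 and Nanog, joined in the naive state by Esrrb, Tfcp2l1 and Zfp42. Fibroblasts instead express collagens, matrix enzymes and mesenchymal regulators, and carry a Hox code that records the position of the cells along the body. Reprogramming turns the first programme on and the second off. A gene that stays at the fibroblast level may not have followed, or the ES and MEF references may differ there in strain or other traits. With a single array of each reference, these cannot be told apart. Sonic hedgehog binds the receptor Ptch1, which frees Smoothened and activates the Gli transcription factors.

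Levels are log2 of the background-subtracted signal minus the 75th percentile of the same array, so 0 is the signal of a fairly bright probe and 1 unit is 2-fold. Of 25337 genes with a value on the 3 arrays, 6165 were at least 4-fold apart between ES and MEF, or 24.3%. These were 3846 genes higher in ES (15.2%) and 2319 genes higher in MEF (9.15%). For each, the place of the line was given as a percentage of the log2 distance from MEF to ES, with 0 at MEF and 100 at ES. A gene within 2-fold of ES was counted as having reached ES, and a gene within 2-fold of MEF as kept at the MEF level. A gene more than 2-fold past either reference was counted as past it, and the remainder as lying between. Where the line and the lower reference were both not well above background, the gene was counted with the lower reference. Only the class was set this way. The percentage was still computed with dim signals raised to the lowest usable signal of each array.

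The Shh-Oct4 array had the lowest share of gene spots well above background of the 12, at 58.4% against 61.5% to 80.0% on the others, and its lowest usable signal was the highest, at -4.20 on the log2 scale, against -5.36 on the ES array and -6.85 on the MEF array. It was hybridised on another slide than ES and MEF, so slide and line cannot be told apart in these comparisons. The spread between the 2 lines of 1 recipe served as a yardstick of error. Over the 6165 genes its median SD was 0.91 log2 units, and 42.5% to 49.0% of the genes were more than 2-fold apart between 2 such lines. Both values come from measured levels without the floor, so noise below background enters them, while classes and folds use the floor. The 2 purmorphamine-Oct4 lines were also on different slides. Across all 25429 genes kept, the line correlated with ES at r = 0.92 and with MEF at r = 0.81. These are correlations across genes, which are not independent, and for the other 8 lines they ran from 0.91 to 0.94 with ES and from 0.81 to 0.86 with MEF.

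Of the genes higher in ES, 1861 (48.4%) had reached ES, 605 (15.7%) lay between, 943 (24.5%) were kept at the MEF level, 421 (10.9%) were past ES and 16 (0.416%) were past MEF. Of the genes higher in MEF, 1508 (65.0%) had reached ES, 410 (17.7%) lay between, 224 (9.66%) were kept at the MEF level, 147 (6.34%) were past ES and 30 (1.29%) were past MEF. The high floor of the array bears on both sets. For 438 of the 943 genes kept at the MEF level, the lowest usable signal of the line was itself within 2-fold of ES or above it, so the array could not have shown a rise, and 505 remain when these are set apart. The genes kept at the MEF level among those higher in MEF contained no such case. Of the 605 genes higher in ES that lay between, 128 were below background in the line and could not be placed. Among the genes that had reached ES, 110 of the 1861 higher in ES and 58 of the 1508 higher in MEF could not be placed in this sense either, and 637 of the 1508 were counted there because line and ES were both below background. Over all genes, the line was at least 2-fold above ES at 13.4%, at least 2-fold below ES at 10.6%, at least 2-fold above MEF at 25.2% and at least 2-fold below MEF at 15.6%, and at least 4-fold below MEF at 7.9%. Shares of the lists below are set against all genes, including those the array could not place. Of 3010 genes higher in ES with ES at least 2-fold above the floor of the line, 53.4% had reached ES. In that set 16.8% were kept at the MEF level.

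The median place of the line was 89.2% of the way to ES over the genes higher in ES and 73.9% over the genes higher in MEF. Both values rest on how a signal below background is read, since the percentages used the floor of each array there. With the line placed at the lower reference wherever both were below background, the first was 81.6% and the second 95.9%, in reversed order. Under that reading the other 8 lines ran from 78.6% to 89.2% over the genes higher in ES and from 57.2% to 98.1% over the genes higher in MEF. The Shh-Oct4 line thus lay inside the range of the other lines in both directions. The SD between lines of 1 recipe was 3.71 percentage points for the first median and 14.5 for the second.

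**Figure D1:**
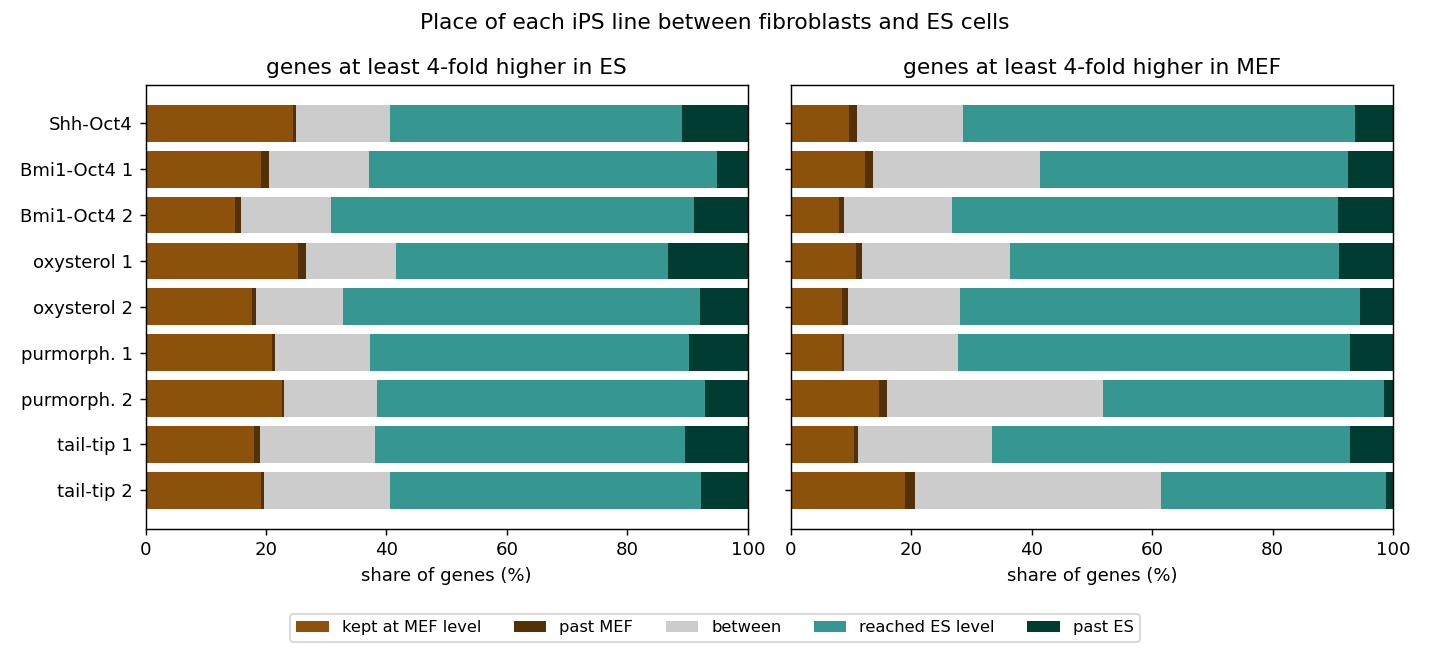
Share of genes, in percent, in each class for the Shh-Oct4 line (top bar) and the other 8 iPS lines, with genes higher in ES on the left and genes higher in MEF on the right. In the Shh-Oct4 line 48.4% of the left set and 65.0% of the right set had reached the ES level; the 24.5% kept at the MEF level on the left include 438 genes that its dim array could not place.

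The 4-fold rule did not set these values sharply. Just inside it, the 224 genes higher in ES by 4-fold to slightly more had a median of 102.7% and the 146 genes higher in MEF a median of 65.5%. Just outside it, the 232 and 136 genes on the other side had medians of 97.9% and 67.5%. These medians too rest on how dim signals are read. With dim genes placed at the lower reference they were 87.9% and 93.2% inside, and 82.8% and 98.9% outside.

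The pluripotency circuit stood at the ES level or past it, apart from Dppa3. Of 19 measured genes of the core and naive list, 15 were at least 4-fold higher in ES. Of these 11 had reached ES, 3 were past it and 1 was kept at the MEF level, against 48.4%, 10.9% and 24.5% of all genes higher in ES. The list median was 105.6% of the way, against 89.2% over all genes higher in ES. Pou5f1, which encodes Oct4, was at 3.62 on the ES array, -6.66 on the MEF array and 3.91 in the line. Whether the probe separates the endogenous transcript from the introduced one was not examined. Sox2, the partner of Oct4 on DNA, was at 3.71 in ES, -1.16 in MEF and 3.87 in the line. Nanog was at 5.14, -3.96 and 5.42, with the spot saturated on the ES and Shh-Oct4 arrays. All 3 factors were within 2-fold of ES in the line, and at least 32.6-fold above MEF.

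Among the other factors of the naive state, Esrrb was at 4.60 in ES, -5.97 in MEF and 5.19 in the line. Zfp42, a zinc finger gene long used as a marker of naive cells, was at 3.11 in ES and 4.23 in the line, 2.16-fold above ES, while its second probe was within 2-fold of ES. Sall1 and Tcl1, the latter a cofactor of Akt, were 2.15-fold and 2.06-fold above ES. For these 3 genes the step past ES was only slightly above the 2-fold limit. Klf4 and Myc, the other 2 factors of the classic reprogramming set, were less than 4-fold apart between ES and MEF, with Klf4 at 3.94 in ES, 3.48 in MEF and 3.42 in the line.

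Dppa3 was the exception of the list. It encodes a maternal factor (Stella) that protects methylation in the early embryo and varies from cell to cell in ES culture. It was at -1.89 in ES, -7.04 in MEF and -6.50 in the Shh-Oct4 line, and was well above background in ES but in neither of the other 2. The line was at least 4.95-fold below ES. The other 8 lines ran from -3.81 to 0.14 with a median of -2.14, all well above background, so the Shh-Oct4 line lay below every one of them, and none shared its class. The SD between lines of 1 recipe was 1.42. In the test of the Shh-Oct4 line against the other 8 lines this gene did not pass the threshold.

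Of 27 measured genes on the list of further ES-cell markers, 19 were at least 4-fold higher in ES. Of these 13 had reached ES, 5 were past it, 1 lay between and none was kept at the MEF level, a share at ES of 68.4% against 48.4% of all genes higher in ES. Alkaline phosphatase Alpl, the classic stain for pluripotent colonies, was at 2.19 in ES, -8.83 in MEF and 2.21 in the line. Dppa4 was at 2.27 in ES and 2.35 in the line. Lin28a, which blocks maturation of let-7 microRNAs, lay between at 2.64 in ES and 1.60 in the line. Zscan4c, a gene of the 2-cell embryo that flickers on in small groups of ES cells, was at 1.69 in ES and 4.66 in the line, 7.88-fold above ES. Nodal, a ligand of the TGF-beta family, was 3.30-fold above ES. Both genes were also above ES in part of the other lines, with 3 of 8 in the same class for each.

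Among the named genes that had reached ES, the widest gap between ES and MEF was that of Platr10, a long non-coding RNA of pluripotent cells. It was at 5.10 in ES, -8.98 in MEF and 5.49 in the line, where its spot was saturated, and the other 8 lines ran from 4.95 to 5.58. Its probe lies at chr3:75753483-75753542 on the minus strand in build mm7, the build of the array design. It is shown because it is the transcript that separated the 2 references most among the named genes:
Platr10: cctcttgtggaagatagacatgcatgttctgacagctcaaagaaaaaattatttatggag

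Ccdc88c, Sall4, Col13a1, Esrrb and Fmr1nb followed it in that order. Sall4, a zinc finger partner of Oct4, was at 5.21 in ES, -6.43 in MEF and 5.51 in the line and was saturated on both the ES and the Shh-Oct4 arrays.

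The fibroblast programme was down to the ES level or below it for most of its genes. All 34 genes of the fibroblast matrix list that were at least 4-fold apart were higher in MEF, of 45 measured. In the line 23 had reached ES, 7 lay between, 4 were past ES and none was kept at the MEF level. The share at ES, 67.6%, was near the 65.0% of all genes higher in MEF. The list median was 87.6%, or 100% with the line placed at ES where both were below background, against 73.9% and 95.9% over all genes higher in MEF. Of the 34 genes, 16 were not well above background in the line. Mmp3, a matrix metalloprotease, was at 4.98 in MEF, -7.31 in ES and -6.29 in the line, at least 577-fold below MEF. Thbs1, which encodes thrombospondin, was at 4.92 in MEF and -6.20 in the line, and the proteoglycan gene Dcn was at 4.59 in MEF and -4.57 in the line. All 3 were below background in the line as in ES.

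The 7 matrix genes that lay between included Col3a1, Col6a1, Fbn1, Thbs2, Bgn and Mfap5. Mfap5, a microfibril protein, was at 1.31 in MEF, -3.02 in ES and -0.86 in the line.

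Of 22 measured mesenchymal regulators, 15 were at least 4-fold higher in MEF. In the line 9 had reached ES, 2 lay between, 3 were past ES and 1 was kept at the MEF level. The share at ES, 60.0%, and the share kept, 6.67%, were near the 65.0% and 9.66% of all genes higher in MEF. Prrx1, a homeobox factor of limb and connective tissue, was at 4.26 in MEF, -3.22 in ES and -3.30 in the line. Snai2, a repressor of epithelial genes, was at 3.39 in MEF, -0.18 in ES and -1.46 in the line, 2.42-fold below ES. Twist2 lay between, at 4.90 in MEF, below background in ES at -7.18 and at -3.45 in the line. Meox2 was kept: it encodes a mesodermal homeobox factor and was at -1.90 in MEF, below background in ES at -7.27 and at -2.44 in the line. It was well above background in 1 of the other 8 lines, and the SD between lines of 1 recipe was 1.94. With slide as a block the difference from ES turned to -0.25, so its direction rests on that choice.

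On the epithelial list 18 of 30 measured genes were at least 4-fold higher in ES and 1 was higher in MEF. Of the 18, 12 had reached ES, 6 lay between and none was kept at the MEF level, against 48.4%, 15.7% and 24.5% of all genes higher in ES. Marveld3, among the 6, was below background in the line, and the array could not place it. Cdh1, the E-cadherin gene, was at 2.36 in ES, -8.91 in MEF and 2.45 in the line. The tight junction genes Cldn6 and Cldn7 stood lower. Cldn6 was at 4.57 in ES, -4.10 in MEF and 1.95 in the line, 6.17-fold below ES, and Cldn7 was 3.09-fold below ES. The other 8 lines ran from 2.51 to 4.37 for Cldn6 and from 1.77 to 4.64 for Cldn7, so the Shh-Oct4 line was below all of them for both genes.

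**Figure D2:**
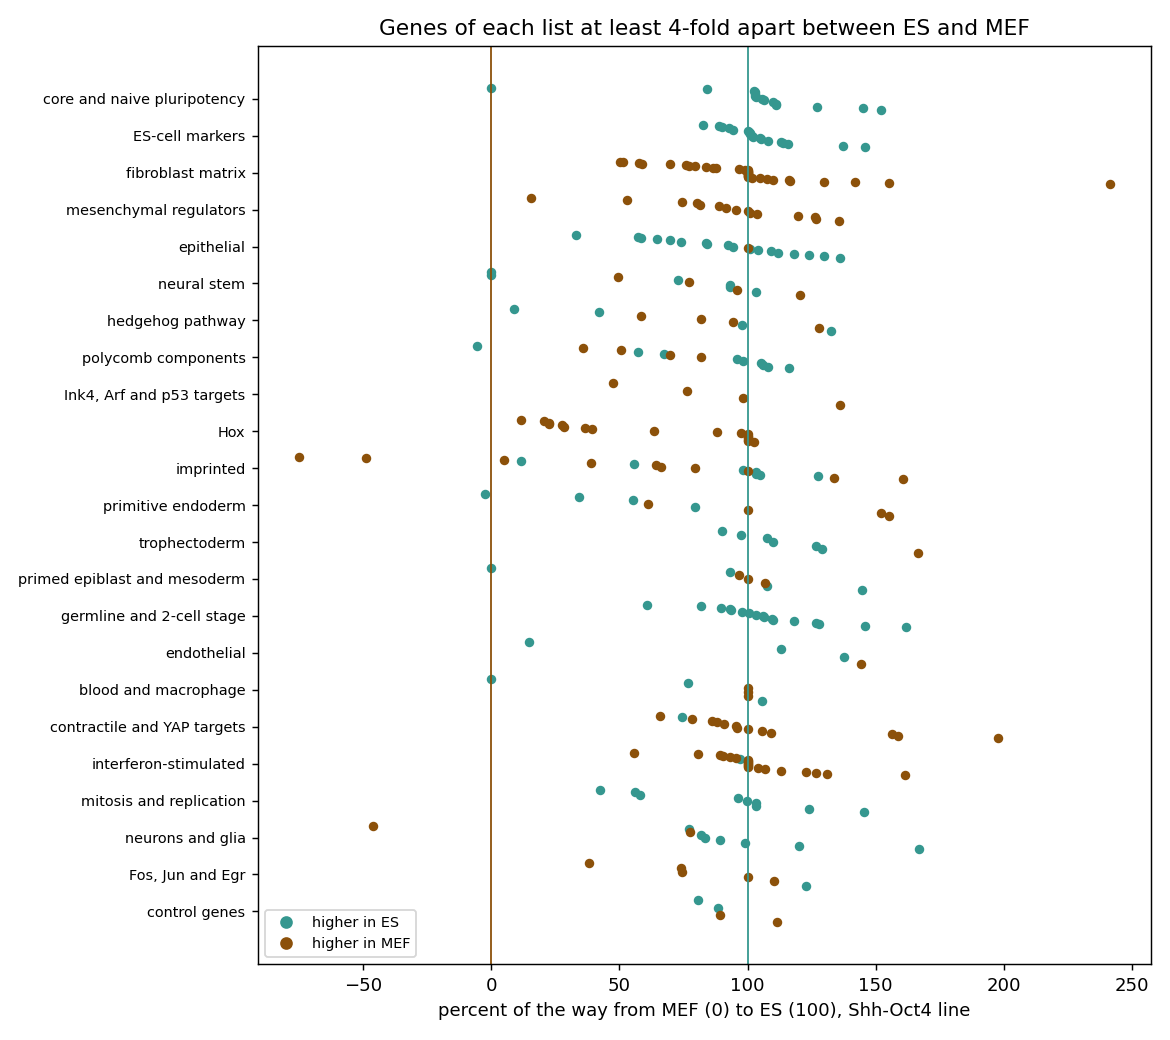
Place of each gene between MEF (0) and ES (100), in percent of the log2 distance, in the Shh-Oct4 line, for the lists with at least 4 genes that were at least 4-fold apart; green points were higher in ES and brown points higher in MEF, and a gene below background in both the line and the lower reference is drawn at that reference. The pluripotency genes cluster at and beyond 100 with Dppa3 alone at 0, while the Hox and imprinted lists spread from below 50 to 100 and past it.

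Hox genes were in part left at the fibroblast level. Of 37 measured, 18 were at least 4-fold apart and all 18 were higher in MEF. In the line 10 had reached ES, 3 lay between and 5 were kept, a share of 27.8% kept against 9.66% of all genes higher in MEF. The list median was 60.2%, or 75.8% with genes below background placed at ES, against 73.9% and 95.9%. The 5 kept genes were Hoxa3, Hoxa7, Hoxb3, Hoxd10 and Hoxd13.

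Hoxd13, the most posterior gene of its cluster and a regulator of digits and genital tubercle, was at 2.36 in MEF, -2.50 in ES and 1.36 in the line, 14.5-fold above ES. The other 8 lines ran from -2.35 to -0.07, so the Shh-Oct4 line was above all of them, and none shared its class. The SD between lines of 1 recipe was 0.60. The distance to MEF was 1.99-fold, just inside the limit, and a second probe was in another class. Hoxa3, an anterior gene that patterns pharyngeal arches, was at -0.67 in MEF, -3.00 in ES and -1.20 in the line, above the -3.33 to -2.06 of the other 8 lines, and its second probe was also in another class. Neither gene passed the threshold in the test against the other 8 lines.

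Hoxa7 was at 3.43 in MEF, 1.42 in ES and 2.97 in the line, and Hoxb3 at -0.86, -3.85 and -1.20. Each of them overlapped the range of the other lines. Hoxd9 and Hoxa9 lay between. Hoxd9 was at 2.73 in MEF, -2.94 in ES and 1.11 in the line, 16.6-fold above ES, but its second probe had reached ES. Hoxa9 was at least 11.9-fold above ES. By contrast Hoxb2 was at 0.01 in MEF and not well above background in ES or in the line, with a second probe less than 4-fold apart, and Hoxb5 and Hoxb7 had the same pattern. On this array Hoxb genes therefore stood both at the fibroblast level and at the ES level in the same line.

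The imprinted genes split in all directions. Of 31 measured, 17 were at least 4-fold apart. Among the 10 higher in MEF, 2 had reached ES, 3 lay between, 1 was kept, 2 were past ES and 2 were past MEF, a share at ES of 20% against 65.0% of all genes higher in MEF. The kept gene, Meg3, and the 2 past MEF, Rian and Mirg, are the maternally expressed non-coding RNAs of the Dlk1-Dio3 region on chromosome 12. Their silencing in iPS lines has been tied in other work to poor developmental potential.

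Meg3 was at 3.01 in MEF, -3.22 in ES and 2.71 in the Shh-Oct4 line, 60.6-fold above ES and within 1.23-fold of MEF. Rian was at -1.69 in MEF, below background in ES at -7.26 and at 1.06 in the line. That is at least 86.1-fold above ES and 6.76-fold above MEF. Mirg, the host of a microRNA cluster, was at -0.95 in MEF, -3.19 in ES and 0.15 in the line, 10.2-fold above ES and 2.14-fold above MEF. All 3 RNAs were thus low on the ES array and high in the line. Of the other 8 lines, Meg3 was in the same class in 6 and at -6.13 and -4.51 in the second Bmi1-Oct4 line and the first purmorphamine-Oct4 line. The Shh-Oct4 line therefore belonged with the larger group of lines, and the ES array and those 2 lines stood below. The SD between lines of 1 recipe was 3.89 for Meg3.

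The probes are shown because Meg3 and Rian were read through several that did not all behave alike, and Mirg through 1. All lie on the plus strand of chromosome 12 in build mm7, and the exon structure at these positions was not analysed here:
Meg3, used for the gene, chr12:107092697-107092756: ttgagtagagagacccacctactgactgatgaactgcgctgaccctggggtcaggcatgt
Meg3, without a gap between ES and MEF, chr12:107083918-107083977: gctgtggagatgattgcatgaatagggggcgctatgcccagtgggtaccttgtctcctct
Rian, used for the gene, chr12:107172103-107172162: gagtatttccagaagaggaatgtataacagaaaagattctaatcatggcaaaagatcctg
Rian, other probe, chr12:107180614-107180673: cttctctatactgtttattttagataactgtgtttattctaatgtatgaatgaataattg
Mirg, chr12:107261346-107261405: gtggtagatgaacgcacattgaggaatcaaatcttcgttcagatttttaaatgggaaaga

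Of the 5 Meg3 probes, 4 were at least 4-fold higher in MEF than in ES, though 2 of the 4 other probes were in another class than the one used. The probe without a gap was at -3.68 in ES, -3.71 in MEF and -1.12 in the line. The second Rian probe was at 1.17 in MEF, below background in ES at -7.35 and at -0.53 in the line, below the MEF level. The step of Rian past MEF was thus seen with 1 probe and not with the other, while both probes were far above ES. Dlk1, the paternally expressed coding gene of the region and a ligand related to the Notch ligands, lay between at -0.28 in MEF, -3.05 in ES and -1.36 in the line, a step above ES that turned to -0.19 with slide as a block. Dio3, at the other end of the region, was less than 4-fold apart between the references and was at 0.42 in the line, above ES at -2.05 and MEF at -0.79.

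Elsewhere among the imprinted genes, H19 and Igf2, neighbours under shared control, both lay between. H19 was at 3.74 in MEF, -1.90 in ES and -0.74 in the line, and with slide as a block its difference from ES turned to -2.41. Plagl1 and Nnat were past ES, 4.06-fold and 4.86-fold below it, though a second Plagl1 probe had reached ES. Among the 7 imprinted genes higher in ES, 5 had reached ES (71.4% against 48.4%), 1 lay between and Peg3, a paternally expressed zinc finger gene, was kept at the MEF level. It was at -1.15 in ES, -3.42 in MEF and -3.16 in the line, below the -2.48 to -0.58 of the other 8 lines, but neither of its 2 other probes was 4-fold higher in ES.

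**Figure D3:**
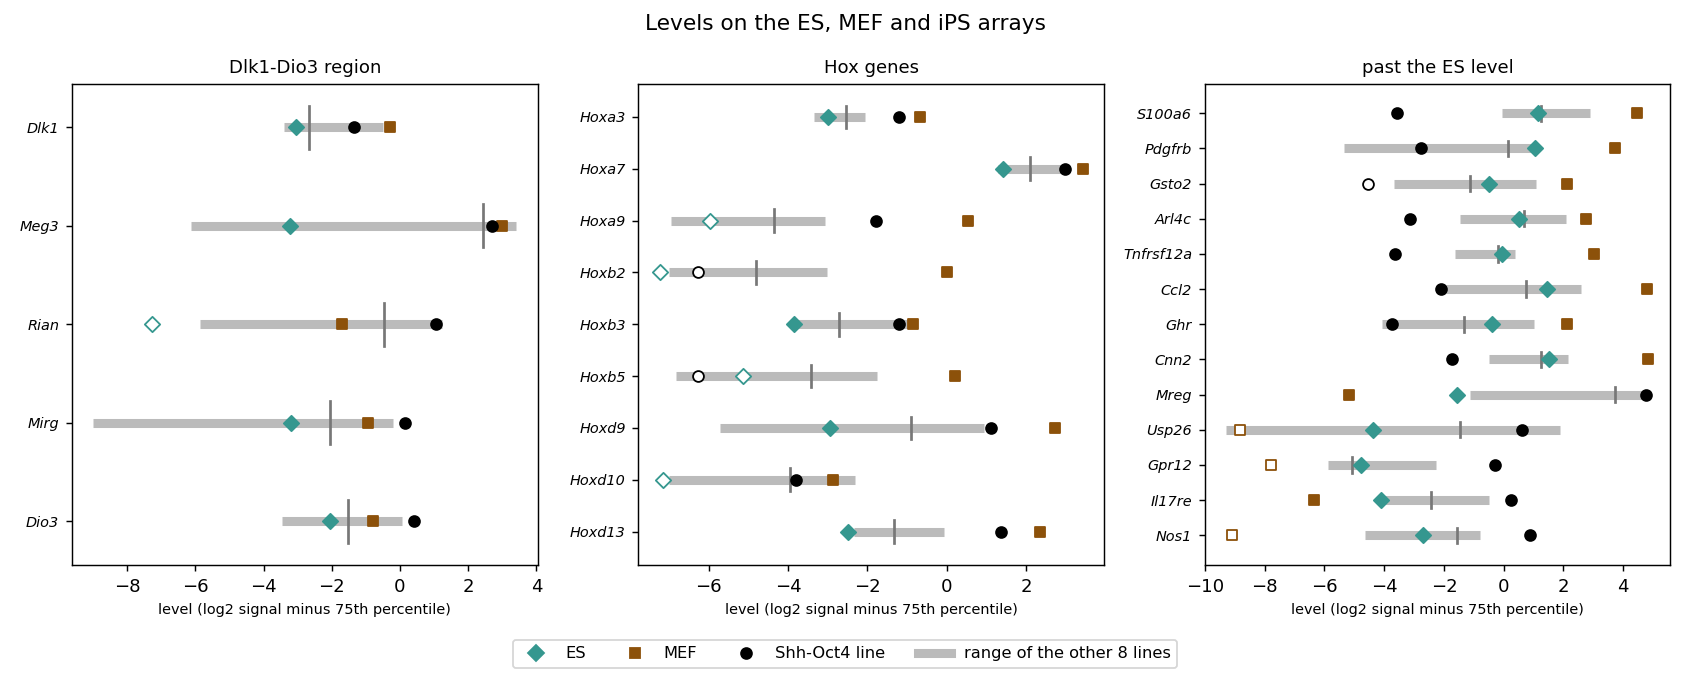
Levels, as log2 signal minus the 75th percentile of the array, of the Dlk1-Dio3 genes, of 9 Hox genes and of 13 genes past the ES level; green diamonds are ES, brown squares MEF and black circles the Shh-Oct4 line, open symbols are not well above background, and grey bars span the other 8 lines with their median as a tick. Meg3 in the Shh-Oct4 line sits at 2.71 beside MEF at 3.01, Hoxd13 at 1.36 lies above all the other lines, and S100a6 at -3.56 lies below all of them.

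The hedgehog pathway was described because Shh was the agent of this recipe. Of 22 measured genes, 8 were at least 4-fold apart. Of the 4 higher in ES, 2 had reached ES, 1 lay between and 1 was kept, and of the 4 higher in MEF, 3 had reached ES and 1 lay between. With so few genes the shares at ES, 50% and 75% against 48.4% and 65.0%, do not set the list apart. Ptch1 and Gli1, the receptor and the transcription factor that are standard targets of the pathway, were less than 4-fold apart between the references. Ptch1 was at -2.31 in ES, -3.64 in MEF and -2.50 in the line, and Gli1 at -3.54, -5.37 and -2.87. Gli1 in the line was 1.59-fold above ES and 5.67-fold above MEF, and lay inside the -4.52 to -1.66 of the other 8 lines. The ligand gene Dhh was kept at the MEF level, at 0.37 in ES, -2.51 in MEF and -2.25 in the line. The Shh transcript itself was not analysed here.

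Bmi1, the polycomb protein that the series is named for and a hedgehog target, was at 0.37 in MEF, -2.10 in ES and -1.64 in the line, 81.7% of the way to ES. A second probe for Bmi1 was less than 4-fold apart. Of 26 measured polycomb components, 13 were at least 4-fold apart. Of the 9 higher in ES, 6 had reached ES, 2 lay between and 1 was kept, a share at ES of 66.7% against 48.4%, and of the 4 higher in MEF, 2 had reached ES and 2 lay between, 50% against 65.0%. Phf1, higher in ES and counted as lying between, was below background in the line, and the array could not place it. Cbx7, the chromodomain protein of ES-cell polycomb complexes, was at 0.34 in ES, -5.44 in MEF and 0.11 in the line. Ring1, a ubiquitin ligase subunit, was the kept gene, at -0.55 in ES, -3.15 in MEF and -3.30 in the line. A second Ring1 probe was less than 4-fold apart. At the Ink4 locus, a brake on reprogramming that Bmi1 represses in fibroblasts, Cdkn2a had reached ES and Cdkn2b lay between, at 2.83 in MEF, -3.30 in ES and -0.08 in the line.

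Neural genes were described because the recipe passes through a neural-stem-cell-like state. Of 29 measured neural stem genes, 10 were at least 4-fold apart. Of the 6 higher in ES, 4 had reached ES and 2 were kept, and of the 4 higher in MEF, 3 had reached ES and 1 lay between. The shares at ES were 66.7% and 75%, against 48.4% and 65.0% over all genes. Of the 2 kept genes, Dll1 had an ES level too low for the Shh-Oct4 array to place it. Nes, the intermediate filament gene nestin that marks neural progenitors, was at 0.30 in MEF, -3.34 in ES and -2.51 in the line. That was level with the lowest of the other 8 lines, which ran from -2.49 to -0.41. Pax6, a factor of the eye and forebrain, was at -2.03 in ES and below background in MEF and in the line, at least 4.48-fold below ES, though its second probe was in another class. Fabp7, a fatty acid binding protein of radial glia, lay between, at -0.67 in MEF, below background in ES and at -2.99 in the line. Of 18 measured genes of neurons and glia, 9 were at least 4-fold apart. Of the 7 higher in ES, 5 were counted as having reached ES and 2 were past it. Of the 2 higher in MEF, 1 had reached ES and 1 was past MEF. The shares at ES were 71.4% and 50%, against 48.4% and 65.0% over all genes. Map2 and Neurod1, among the 5, were below background in the line, and the array could not place them. Tubb3, a neuronal tubulin, was past MEF, at -0.99 in MEF, -3.69 in ES and 0.25 in the line, 15.3-fold above ES and inside the range of the other lines.

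Lef1, which carries Wnt signals to DNA together with beta-catenin, was at 1.43 in MEF, -1.56 in ES and -1.46 in the line. In the others it ran from 0.94 to 2.85, so with this probe the Shh-Oct4 line alone was at the ES level, but with a second Lef1 probe the line was kept at the MEF level. Of 9 mitosis and replication genes at least 4-fold higher in ES, 6 had reached ES and 3 lay between, a share at ES of 66.7% against 48.4%. Espl1, the protease that separates sister chromatids, was at 4.46 in ES, -3.26 in MEF and 0.03 in the line, 21.5-fold below ES, and all 8 other lines were in the same class, while with a second probe the line was kept at the MEF level. Of 13 contractile genes and targets of YAP higher in MEF, 9 had reached ES, 1 lay between and 3 were past ES, a share at ES of 69.2% that was near the 65.0% of all genes higher in MEF. Acta2, the smooth muscle actin gene, was at 3.99 in MEF, 0.84 in ES and 1.28 in the line.

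The named genes with the widest gaps among those kept at the MEF level and higher in ES were Ssc4d, Cabp7, Ebi3, Meiob, Skint7, Bmp10, Lypd9, Cox8c, Smim18, Tex43, Spa17 and Csn1s2a. All but Ssc4d were below background in both MEF and the line, with ES at least 9.41-fold above the line. Meiob, a single-strand DNA-binding protein of meiosis, was at -0.11 in ES, -8.25 in MEF and -6.16 in the line, at least 17.0-fold below ES. The other 8 lines ran from -3.35 to 0.30, all above the Shh-Oct4 line and well above background. Spa17, a sperm protein, was at -0.90 in ES and -4.76 in the line, against -3.76 to -1.21 in the other 8 lines, all of them well above background. Skint7 and Csn1s2a, a casein gene, were by contrast below background in all 8 other lines.

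Of the 943 genes kept at the MEF level and higher in ES, 100 were in that class in no other line and 104 in all 8. Among the 224 genes kept at the MEF level and higher in MEF, 40 were in that class in no other line and 5 in all 8. Of the 943, 748 were not well above background in the Shh-Oct4 line, and the part of its dim array in these counts was not tested.

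**Figure D4:**
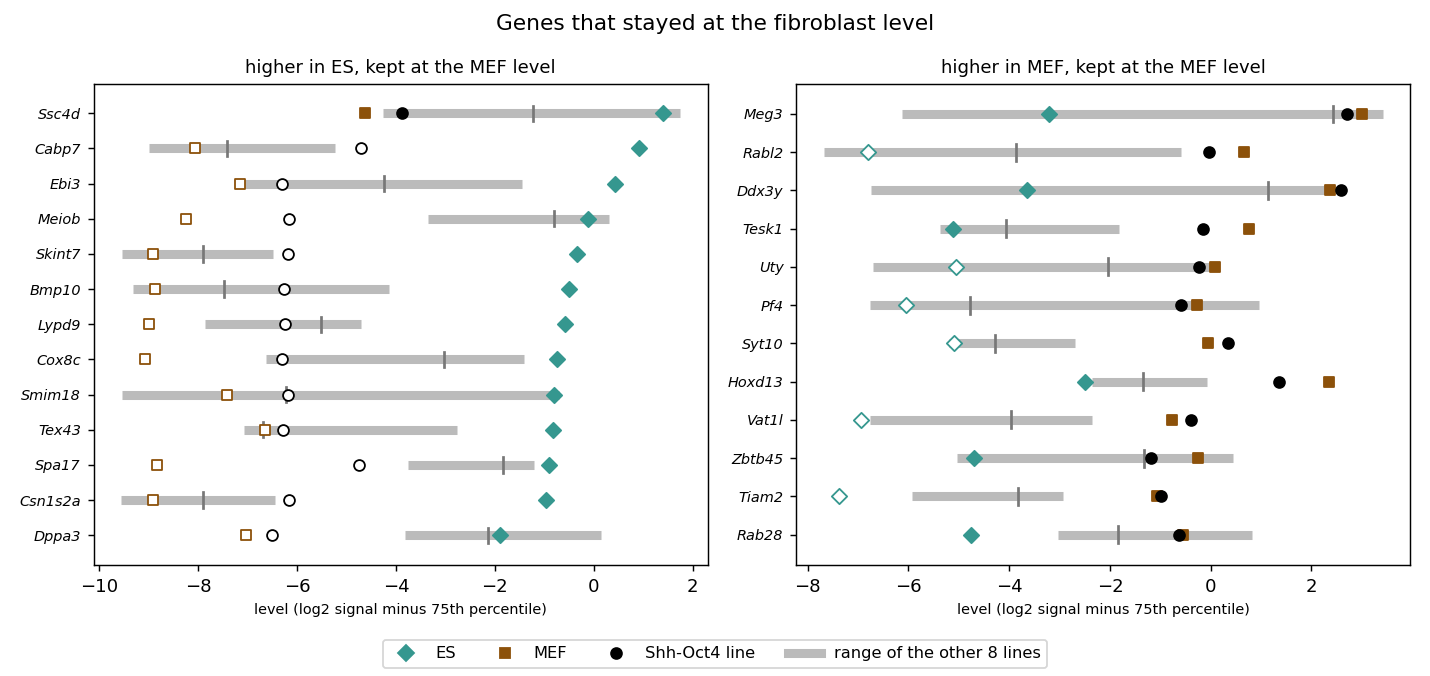
Levels, as log2 signal minus the 75th percentile of the array, of the 12 genes with the widest gap kept at the MEF level on each side, with Dppa3 added on the left; green diamonds are ES, brown squares MEF and black circles the Shh-Oct4 line, open symbols are not well above background, and grey bars span the other 8 lines with their median as a tick. On the left the line sits below background with MEF for every gene except Ssc4d, and Meiob, Spa17 and Dppa3 lie below the whole range of the other lines; on the right Syt10, Tesk1, Hoxd13, Tiam2, Vat1l, Rabl2 and Ddx3y lie above it.

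On the other side, the genes kept at the MEF level and higher in MEF with the widest gaps were Meg3, Rabl2, Ddx3y, Tesk1, Uty, Pf4, Syt10, Hoxd13, Vat1l, Zbtb45, Tiam2 and Rab28. All 12 were well above background in the line. Tesk1, a kinase first found in testis, was at 0.76 in MEF, -5.12 in ES and -0.14 in the line, 31.5-fold above ES. The other 8 lines ran from -5.38 to -1.83, all below. Syt10, a synaptotagmin that senses calcium in vesicle release, was at -0.06 in MEF, below background in ES at -5.10 and at 0.34 in the line, at least 43.2-fold above ES. In the others it ran from -5.18 to -2.70. In limma's test of the line against those 8 lines its adjusted p was 0.0704. Tiam2, an activator of Rac, was at -1.07 in MEF and -0.99 in the line, against -5.93 to -2.93 in the other 8 lines. Pf4, a platelet chemokine, was at -0.26 in MEF and -0.60 in the line, inside the range of the other lines.

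Ddx3y and Uty are on the Y chromosome, and Eif2s3y, also Y-linked and chosen after its values were seen, had a like pattern. Ddx3y was at 2.36 in MEF, -3.64 in ES and 2.60 in the line, Uty at 0.09, -5.05 and -0.23, and Eif2s3y at 0.84, -4.39 and 1.85. All 3 were high in MEF and in the line and low on the ES array. Each was well above background in 7 of the other 8 lines, all but the first purmorphamine-Oct4 line. A second Uty probe was less than 4-fold apart. Of 16 Y-linked genes measured, 9 were well above background in MEF and 5 in the line, of which 4 were so in both. Kdm5d was at 1.37 in MEF and below background in ES and in the line. Sly was at -6.13 in MEF and -1.71 in the line, and Uba1y was below background in MEF and at -2.74 in the line.

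Past the ES level, on the side of genes higher in ES, the named genes were Mreg, Usp26, Gpr12, Il17re, Smr3a, Msgn1, Nos1 and Adad2. Mreg, melanoregulin, was at -1.58 in ES, -5.17 in MEF and 4.77 in the line, 81.5-fold above ES, and 7 of the other 8 lines were in the same class. Gpr12, an orphan receptor, was at -4.79 in ES, below background in MEF and at -0.29 in the line, 22.6-fold above ES, and the other 8 lines ran from -5.89 to -2.26. Nos1, the neuronal nitric oxide synthase, was 11.9-fold above ES and above all the other lines, whose highest was at -0.78 against 0.88 in the line, though a second probe gave another class. Msgn1, a factor of paraxial mesoderm, was 17.0-fold above ES and inside the range of the other lines.

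On the side of genes higher in MEF, the line was past ES for S100a6, Pdgfrb, Gsto2, Arl4c, Tnfrsf12a, Ccl2, Ghr and Cnn2. S100a6, a calcium-binding protein of fibroblasts, was at 4.46 in MEF, 1.16 in ES and -3.56 in the line, 26.4-fold below ES, and the other 8 lines ran from -0.06 to 2.88. Tnfrsf12a, a TNF-family receptor induced by growth factors, was at 3.0 in MEF, -0.05 in ES and -3.65 in the line, against -1.62 to 0.39 in the other lines. Cnn2, a calponin that binds actin, was at 4.83 in MEF, 1.51 in ES and -1.72 in the line, 9.42-fold below ES, against -0.49 to 2.14 in the other lines. These 3 genes were below every other line. Pdgfrb, a receptor of mesenchymal cells, was 13.9-fold below ES and inside the range of the other lines.

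Few genes were past MEF. On the side higher in ES there were 16, of which 9 were not well above background in the line. Rgcc, Pkdcc, Radil, Sprtn, Il1rap, Grin1 and Npc1 were of this kind, so only a bound can be given. Grin1, an NMDA receptor subunit, was at 1.38 in ES, -2.55 in MEF and below background in the line, at least 3.14-fold below MEF, while the other 8 lines ran from -2.90 to 2.83. Pemt, a phospholipid methyltransferase, was above background at -1.94, 2.43-fold below MEF and 28.0-fold below ES, with a second probe less than 4-fold apart. On the side higher in MEF, 30 genes were past MEF, among them Rian, Sp2, Tbc1d12, Foxd1, Nfe2, Tmem259, C1qtnf12 and Hvcn1. Foxd1, a forkhead factor of kidney stroma and retina, was at -2.0 in MEF, -4.05 in ES and 0.36 in the line, 5.12-fold above MEF, with a second probe in another class. Hvcn1, a proton channel, was at -3.29 in MEF and -1.71 in the line, above the -7.28 to -4.59 of the other 8 lines.

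Genes of the early embryo and germ line were described by list. Of 7 trophectoderm genes at least 4-fold apart, 6 were higher in ES. All 6 had reached ES, Cdx2 and Eomes among them, against 48.4% of all genes higher in ES. Gata3 was higher in MEF and past ES. It was below background in the line, at least 3.82-fold below ES. Of 4 primitive endoderm genes higher in ES, none had reached ES, against 48.4% of all genes higher in ES. Sox17, Sox7 and Lama1 lay between. Cubn, an endocytic receptor of visceral endoderm, was kept, at 2.51 in ES, -1.51 in MEF and -1.62 in the line. This was not particular to the Shh-Oct4 line: the class was the same in all 8 other lines for Lama1, in 7 for Sox17 and in 5 each for Sox7 and Cubn. Of the 4 higher in MEF, Thbd had reached ES, Fst lay between, and Pdgfra and Col4a2 were past ES. Of 17 germline and 2-cell genes, 11 had reached ES, 5 were past it and 1 lay between, a share at ES of 64.7% against 48.4%. Stra8, which opens meiosis, was at 0.66 in ES, below background in MEF at -9.05 and at 2.66 in the line, 4-fold above ES and above all the other 8 lines, whose highest was 1.57. Of the 21 interferon-stimulated genes higher in MEF, 18 had reached ES, 85.7% against 65.0%, with 11 not well above background in the line. Ifit1 was at 3.28 in MEF and below background in ES and the line.

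Tested against the other 8 lines with limma (7 residual degrees of freedom, Benjamini-Hochberg over 25381 genes), 16 genes were higher in the Shh-Oct4 line (0.063%) and 5 lower (0.0197%) at an adjusted p under 0.05, and 1589 had an unadjusted p under 0.05. With no difference present, a share of about 0.05 of the genes would fall under an unadjusted p of 0.05, in this fit and in the others below. The single array is assumed to vary as the other lines do. Of the genes that define the place between ES and MEF, 1 was called. Rab42, a small GTPase, was kept at the MEF level: it was at -1.22 in ES, -3.67 in MEF and below background in the line, at least 7.86-fold below ES, while the other 8 lines ran from -2.24 to -1.41, and its limma adjusted p was 0.0338. Sox14, a neural transcription factor, was at -0.28 in the line and from -6.45 to -5.24 in the other 8 lines, with a limma adjusted p of 0.0090. Nr3c2, the mineralocorticoid receptor, was at 2.28 in the line, from -6.99 to -4.28 in the others, with a limma adjusted p of 0.0338. Sbsn, a secreted protein of keratinised epithelia, was at -2.52 in the line and from 1.05 to 1.96 in the others, with a limma adjusted p of 0.0294. The 10 genes with the largest calls upward were well above background in at most 5 of the other 8 lines. The test used levels without the floor, so signals below background in the other lines entered it. A430050A11Rik, among the 10, was well above background in 0 of them. Its difference from them was 8.03 log2 units without the floor and 5.93 with it. No gene of either direction was called with slide as a block, among the 4 lines that share its slide, or without the tail-tip lines (limma, 1741, 1570 and 1533 genes at an unadjusted p under 0.05).

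Genes well above background on all 12 arrays were compared by chromosome, and chromosome 8 is described here after its values were seen. On chromosome 8, 633 genes had a median of 0.34 log2 units in the line minus ES, with 69.0% higher in the line, while the medians of the other 18 autosomes ran from 0.01 to 0.12 and that of X was 0.15. Relative to the median of the other autosomes the chromosome 8 value was 0.28 in the Shh-Oct4 line. It was 0.33 and 0.25 in the 2 oxysterol-Oct4 lines, 0.27 and 0.19 in the tail-tip lines, and 0.28 in the second purmorphamine-Oct4 line. In the first purmorphamine-Oct4 line it was -0.08, and in the Bmi1-Oct4 lines 0.05 and -0.06. The 6 lines above 0.1 include every line on the slide of the Shh-Oct4 line, and the 3 near 0 include both on the slide of ES. On the remaining slide the tail-tip lines were high and the first purmorphamine-Oct4 line was not. No line on the slide of the Shh-Oct4 array lacked the difference, so slide and line cannot be told apart there. Among chromosome 8 genes less than 4-fold apart between ES and MEF the median in the line was 0.37, over 519 genes.

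**Figure D5:**
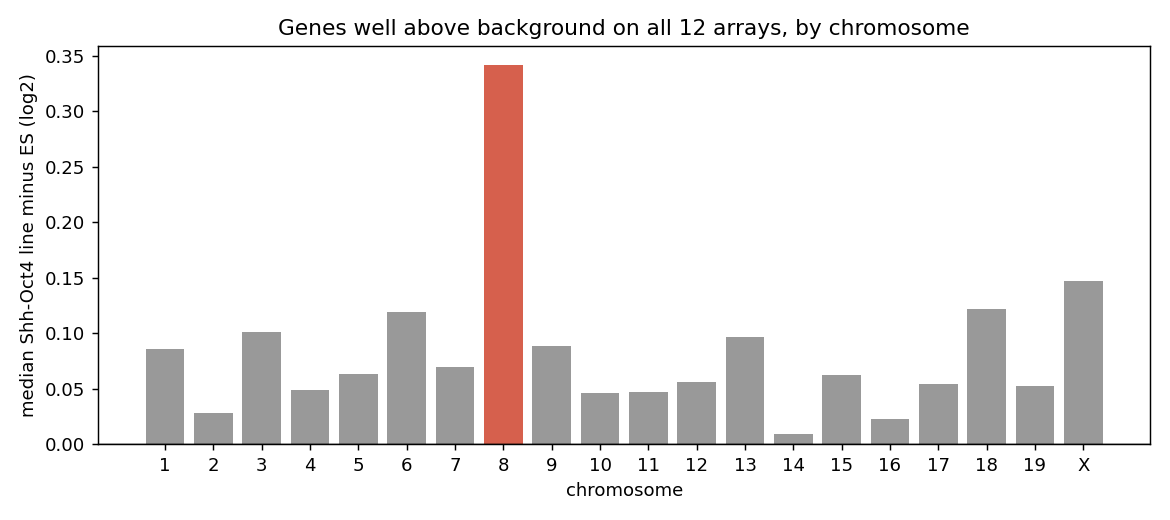
Median of the Shh-Oct4 line minus ES, in log2 units, over genes well above background on all 12 arrays, by chromosome from 1 to 19 and X; bars start at 0 and chromosome 8 is red. Chromosome 8 stands at 0.34, X at 0.15 and the other autosomes between 0.01 and 0.12.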

How the data were processed

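Per the labels, total RNA was extracted with Trizol, labelled with Cy3 and hybridised once per sample. Per the file headers, the deposited intensity values are spot signals from Agilent Feature Extraction 9.5.3.1, background-subtracted and detrended within the array by the authors' scanner software, with flags (other values, 0 or 1) for signal well above background, saturation and outliers; array positions are on build mm7. Log2 signals minus each array's 75th percentile over 43379 gene spots were computed in R 4.3.3 and Python 3.11.15. Outlier spots were left out when spots of a probe were averaged. Each gene was read by the probe with the highest mean level, among probes that rose clearly over background on 1 array or more. Of 41174 probes, 22951 were named by accession and 9768 by symbol or synonym in a RefSeq table, and 8455 kept the deposited name. Signals not well above background were raised to the lowest well-above-background signal of the array. A bound ("at least") uses that value. Saturated spots were kept; 92 of the 6165 genes had one.

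Levels printed are measured; folds use the floor. Named genes were the fixed factors, the widest-gap or farthest genes of each class (12, 8 or 6), the list members kept or outside the range, and the genes called against the other lines, as set out by rule. Members, lists and tests were chosen with earlier results of these data known. 3 readings of dim signals, setting apart genes the array cannot place among them, were added after the array floors were seen. The test against the other lines used limma 3.58.1 on unfloored values; samples of a recipe are lines, and whether they came from separate cultures is not stated, so p-values measure the spread between these lines. On simulated data of the same size over 25175 genes, the test found 8%, 40%, 80% and 90% of changes of 2, 4, 6 and 8 log2 units, with 4 false calls. The simulation held no slide effect and gave the Shh-Oct4 array the spread of the other lines. The slide and the high floor of the real array are therefore not covered by it. The number of arrays limits the precision. Values of 1 list member are not reported here.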

Additional observations from a re-analysis of the deposited data

How the results depend on the processing

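No paired analysis was possible because the Shh-Oct4 line, ES and MEF are 1 array each. For genes higher in ES the median of 89.2% fell to 83.2% without a floor, 83.6% with 1 common floor, 82.9% with normexp, 84.1% with quantile normalization, 85.1% with an 8-fold gap, 83.8% with slide as a block, 81.6% with dim genes at the lower reference and 84.1% over genes 2-fold above the floor of the line. For genes higher in MEF the median of 73.9% became 96.2% with 1 common floor, 95.9% with dim genes at the lower reference, 94.4% with unplaceable genes set apart and 94.8% over genes 2-fold above the floor; the construction of these readings shows that the median moves with the floor. Counts moved by more than 1.5 times as follows. Reached ES, higher in ES (1861): 927 with an 8-fold gap and 1227 with a 1.5-fold window; higher in MEF (1508): 802 with an 8-fold gap and 871 with both references above background. Kept at MEF, higher in ES (943): 451 without a floor, 463 with 1 common floor, 446 with normexp, 443 with an 8-fold gap, 282 with both references above background, 505 with unplaceable genes set apart and 507 over genes 2-fold above the floor; higher in MEF (224): 338 without a floor, 138 with normexp, 58 with an 8-fold gap and 121 with a 1.5-fold window. Past ES, higher in ES (421): 203 with 1 common floor, 204 with normexp, 224 with an 8-fold gap, 254 with both references above background, 670 with a 1.5-fold window and 276 over genes 2-fold above the floor; higher in MEF (147): 269 without a floor, 96 with normexp, 64 with an 8-fold gap, 279 with slide as a block and 240 with a 1.5-fold window. Past MEF, higher in ES (16): 55 without a floor, 8 with normexp, 5 with an 8-fold gap, 54 with slide as a block and 30 with a 1.5-fold window; higher in MEF (30): 79 without a floor, 14 with 1 common floor, 8 with normexp, 4 with an 8-fold gap, 14 with both references above background and 51 with a 1.5-fold window. The correlation was 0.9399 with ES and 0.8315 with MEF under normexp, and 0.7709 with MEF over genes above background on all 12 arrays. Fewer genes enter under the wider gap and the filters; for the other changes the cause was not tested.

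Against the other 8 lines, the 16 genes higher became 98 with normexp, 141 with quantile normalization, 7 with a filter of 6 arrays and 10 with the mean of all probes, and the 5 lower became 50 with quantile normalization, 2 without a filter, and 0 with the mean of all probes or of recipes. With an intensity trend 0 were higher and 1 lower. With slide as a block, within the slide, or without the tail-tip lines, 0 were called, with 1741, 1570 and 1533 genes at an unadjusted limma p under 0.05. Leaving out 1 line at a time gave 4 to 27 higher and 0 to 9 lower; 27 came without the second purmorphamine-Oct4 line and 9 without the first oxysterol-Oct4 line.

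Of 199 named genes, 155 kept their class with slide as a block. The difference of the line from ES changed sign with slide as a block for Dlk1 (-0.19), H19 (-2.41), Egr2 (-0.98), Nefl (-0.45), Meox2 (-0.25), Tgfbr2 (0.63) and Lhx1 (-0.0102), and with the mean of all probes for Cd44 (0.55), Col4a2 (0.56), Lhx1 (-0.0912) and Pax6 (0.49). Hoxd13 kept its class in 9 of 14 alternatives and Hoxd10 in 7 of 10. The high floor of the Shh-Oct4 array limits what can be said of genes near background.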

Other observations

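Of 6 blood and macrophage genes at least 4-fold apart, 3 were higher in ES, of which 2 were counted as having reached ES. All 3 higher in MEF were counted there too, because line and ES were both below background. The shares at ES were 66.7% and 100%, against 48.4% and 65.0% over all genes, with few genes in each. Adgre1, Tyrobp and Ctss were at 0.59, 0.93 and 0.59 in MEF and not well above background in ES or in the line. Laptm5 was at 2.57 in ES, -4.68 in MEF and 2.98 in the line. C1qa was counted as having reached ES, but it was below background in the line and the array could not place it. Gata1 was kept at the MEF level, with an ES level too low for the array to place it. Krt10, a keratin of differentiating epidermis, was kept at the MEF level, at -1.26 in MEF, -4.46 in ES and -1.10 in the line, as in 5 of the other 8 lines. Of the endothelial genes, Cldn5, a tight junction protein of vessels, was kept at the MEF level in the line and in 7 of the other 8 lines, while Tek, the angiopoietin receptor, was 3.22-fold above ES. The transcript Xist, which silences an X chromosome, was at 2.82 on the ES array, -0.10 on the MEF array and 3.77 in the line, and it was chosen after its values were seen. A second Xist probe was higher in MEF than in ES.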
